A study of Oryza sativa with 6 samples.

Results

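Rice genes that carry a numbered ZFP name, for zinc finger protein, were followed in shoots of the dst mutant and of wild-type rice. Members were the genes named ZFP or RZF plus digits in the platform annotation or in a RefSeq gene table. The rule found 4 of the 17905 genes on the array, ZFP33, ZFP38, ZFP48 and ZFP60, read by 7 of the 57194 rice probe sets. All 4 names stand in the gene table as synonyms, and no RZF gene was found. Since 4 is below the limit of 10 genes that the rule sets, none was left out, and all 7 probe sets passed the filter on low signal.

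The working name of the set, C2H2 stress zinc finger genes, does not match the tables. The gene table lists ZFP33 as SAP9 (LOC4342503), ZFP38 as SAP6 (LOC4334392), ZFP48 as SAP7 (LOC4334394) and ZFP60 as SAP11 (LOC4345973). SAP is the family name of the stress-associated proteins, which carry zinc finger domains of the A20 and AN1 types. They are therefore called ZFP-named SAP genes here. Protein sequences were not used, so the finger type rests on the family name. The C2H2 genes ZFP179, ZFP182, ZFP245 and ZFP252 were not analysed here, since neither the platform annotation nor the gene table holds these names.

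A20 and AN1 domains each fold around zinc. The A20 domain is named after an animal regulator of inflammatory signalling that edits ubiquitin chains, and plant proteins with it can bind ubiquitin. Many SAP transcripts of rice are known to rise under cold, drought, salt or wounding, and some SAP genes give stress tolerance when overexpressed. C2H2 fingers mostly bind DNA and belong to transcription factors. DST is one of these, known to act on stomatal opening and hydrogen peroxide in drought and salt responses.

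The series compares 3 wild-type plants' samples of the japonica cultivar Zhonghua11 with 3 samples of the dst mutant, all shoots at an age of 25 days. Light lasted 11 h (26 °C) and darkness 13 h (22 °C) in both groups, and no stress treatment is given for either. The labels call the samples biological replicates. They state neither the allele of dst nor the background of the mutant line, and whether plants were pooled is not given in the sources used here. DST itself was not analysed here.

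Each sample was read on 1 Affymetrix array, so precision is limited by there being 6 arrays. Array medians lay between 117.6 and 140.9 signal units. The highest signal was 31461 to 32620 on the third array of each group and 41451 to 43119 on the other 4. Of 8 green tissue markers 7 passed the filter. The summed signal of all 8 ran from 116348 to 146148 over wild-type arrays and from 115977 to 138903 over dst arrays. Most of that sum was from CAB2R, rca and rbcS. The 7 tested markers all had a lower mean log2 in dst, at limma adjusted p of 0.502 or more. Of 3 root markers 2 passed. Sums of all 3 ran from 1398 to 1631 over wild-type arrays and from 1605 to 1958 over dst arrays. Most of this signal was from Lsi1, a silicon channel gene. The 4 panicle and anther markers, of which 2 passed, had sums of 252 to 386 and of 257 to 364. In extracts of whole shoots, fewer cells of a type and less RNA per cell cannot be told apart.

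No ZFP-named SAP gene differed between dst and wild-type shoots beyond the spread of the replicates. None of the 7 probe sets had an adjusted p under 0.05 in limma, where 317 of 34316 tested probe sets (0.924%) did. At an unadjusted p under 0.05 the count was also 0 of 7, against 10.5% of all tested probe sets. The 3 dst values overlapped the 3 wild-type values in every one of the 7, and 16.6% of all tested probe sets had groups that did not overlap. At such shares a count of 0 among 7 probe sets is common, so the zeros do not set these genes apart. An exact two-sided permutation test over the 6 arrays, which cannot go below 0.10 with 3 against 3, gave p from 0.20 to 0.80.

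**Figure D1:**
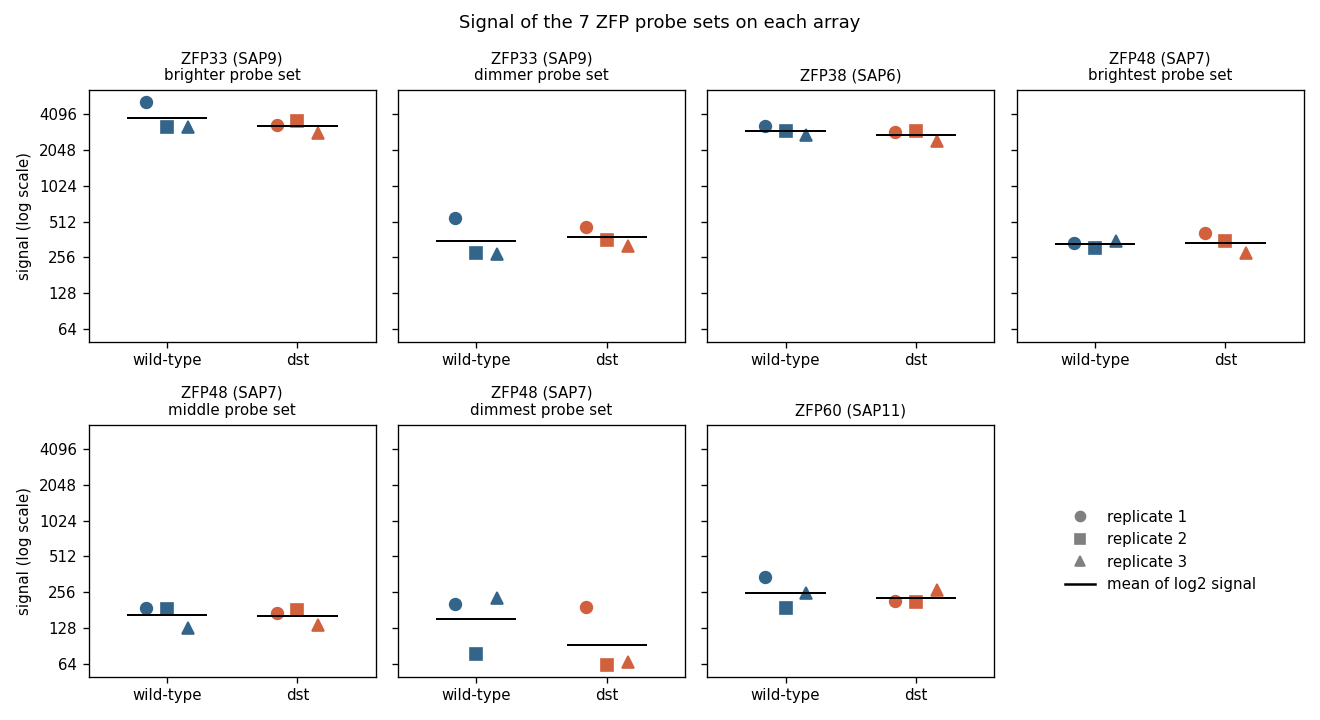
Signal (log scale, authors' units) of each ZFP probe set on the 6 arrays, with 1 marker shape per replicate number and a line at the mean of the log2 values of each group (n = 3). Wild-type and dst values overlap in all 7 panels, and wild-type replicate 1 is the highest array in 5 of them.

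ZFP33, or SAP9, has 2 probe sets. The brighter one gave signals of 5222, 3227 and 3219 in wild-type replicates 1, 2 and 3 and 3365, 3632 and 2866 in dst replicates 1, 2 and 3. Wild-type replicate 1 stood above the rest, and the other 5 arrays of both groups lay close together. The group means were 3890 ± 1154 and 3288 ± 389 (SD, n = 3), and dst minus wild type was -0.21 ± 0.19 in log2 units (SE; limma adjusted p of 0.772). Its 95% interval as a fold ran from 0.644 to 1.16.

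The dimmer ZFP33 probe set read 546.9, 281.7 and 275.5 in the wild type and 460.7, 362.2 and 322.2 in dst. Here too wild-type replicate 1 was the highest array, while the dst values all fell between it and the other wild-type values. The log2 change was 0.11 ± 0.28 (SE), opposite in sign to that of the brighter probe set, and its limma adjusted p was 0.935. The brighter minus the dimmer signal differed between dst and wild type by -0.32 on the log2 scale, with an exact permutation p of 0.20 (two-sided). With 3 against 3 this test cannot go below 0.10, so it says little on whether the probe sets differ.

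ZFP38, or SAP6, had the smallest spread within groups of the 4 genes. Its only probe set gave 3260, 2946 and 2735 in the wild type and 2911, 2955 and 2432 in dst. The values of the groups were interleaved, with wild-type replicate 1 at the top and dst replicate 3 at the bottom. The log2 change was -0.11 ± 0.12 (SE; limma adjusted p of 0.825), with a 95% interval of 0.769 to 1.12 as a fold. Its log2 SD within groups was 0.143, and 81.0% of all tested probe sets had a larger one.

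ZFP48, or SAP7, has 3 probe sets. SAP7 of indica rice is known, from Arabidopsis plants that overexpress it, to dampen responses to abscisic acid. The brightest read 340.3, 305.8 and 349.7 in the wild type and 407.4, 354.9 and 276.7 in dst. The dst arrays held both the highest and the lowest value, and the log2 change was 0.05 ± 0.20 (SE). Its identifier carries the Affymetrix suffix x, which marks probes that may also match other transcripts.

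The middle ZFP48 probe set read 190.1, 185.4 and 128.5 in the wild type and 171.1, 180.7 and 134.5 in dst. The third array of each group was the lowest, and the log2 change was -0.04 ± 0.28 (SE). The dimmest ZFP48 probe set varied most of the 7. It read 204.0, 77.0 and 227.6 in the wild type and 190.7, 62.4 and 66.3 in dst. Thus 3 arrays lay between 190.7 and 227.6 and the other 3 between 62.4 and 77.0, near the filter's signal of 70.5, with both groups present at either level.

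The log2 change at this dimmest probe set was -0.73 ± 0.56 (SE; limma adjusted p of 0.727). It was -0.20 with replicates 1 and 2 only and -0.24 with array weights. Its 95% interval from 0.253 to 1.45 as a fold reached lower than those of the brightest and middle ZFP48 probe sets, which ended at 0.758 and 0.624. Only 5.39% of all tested probe sets had a larger SD within groups than its 0.884. Its difference from the brightest probe set changed by 0.77 between the groups, with an exact permutation p of 0.20 (two-sided).

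ZFP60, or SAP11, is known to bind a receptor-like cytoplasmic kinase of rice. Its probe set read 347.1, 188.7 and 250.4 in the wild type and 214.9, 212.6 and 268.2 in dst. The dst values were close together and lay inside the wild-type range. The log2 change was -0.14 ± 0.26 (SE; limma adjusted p of 0.910), with a 95% interval of 0.602 to 1.37 as a fold.

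**Figure D2:**
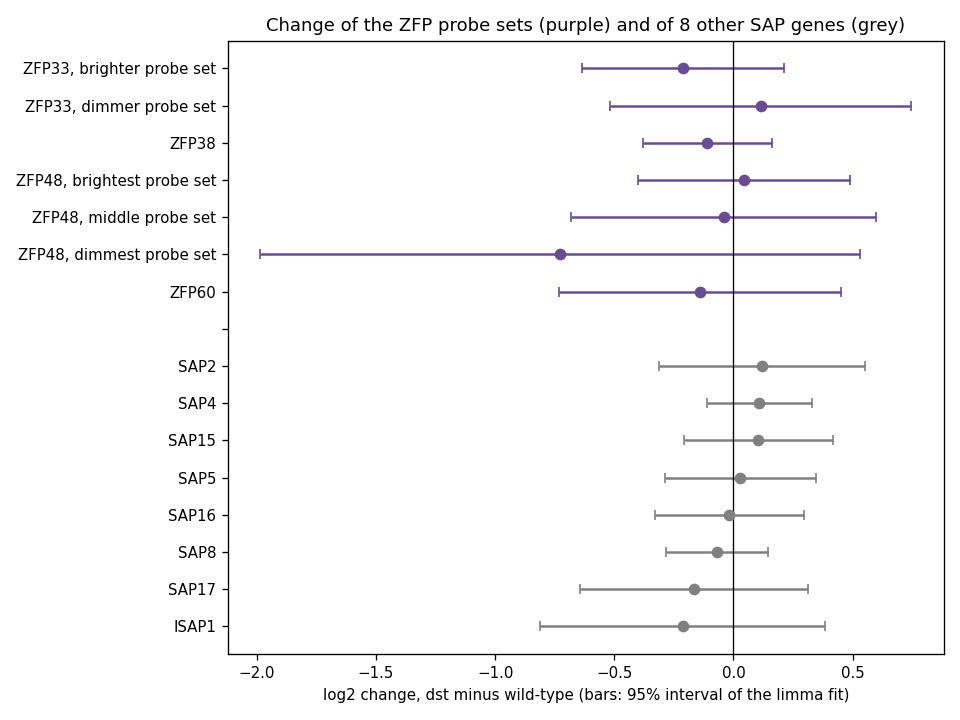
Log2 change, dst minus wild-type, with the 95% interval of the limma fit for the 7 ZFP probe sets (purple) and for 8 other SAP genes (grey, 1 probe set each). All 15 intervals cross 0, and the widest is that of the dimmest ZFP48 probe set.

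Over the 4 genes, each at its brightest probe set, the median log2 change was -0.12, beside 0.02 over all 16013 genes tested. The mean was higher in dst for 1 of 4, ZFP48, whose other probe sets were lower in dst. ZFP33 was higher in dst at its dimmer probe set. No gene of the 4 was called. The share over all genes tested was 0.987%, at which a count of 0 among 4 is usual. Among wild-type arrays alone, the highest and lowest signals of these brightest probe sets differed 1.62-fold for ZFP33, 1.84-fold for ZFP60, 1.19-fold for ZFP38 and 1.14-fold for ZFP48. They differed 1.99-fold at the dimmer ZFP33 probe set, and 1.48-fold and 2.96-fold at the middle and dimmest ZFP48 ones.

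Most signs of these small changes depended on single arrays. With 1 array left out, the sign turned in 3 of the 7 probe sets without wild-type replicate 1, in 3 without wild-type replicate 2, in 2 without dst replicate 1 and in 1 each without wild-type replicate 3 or dst replicate 3. Wild-type replicate 1 was the highest of the 6 arrays in 5 of the 7 probe sets, a pattern noticed after the values were seen, and in 22.2% of all tested probe sets. At these 5 leaving it out could only raise the log2 change, since it takes away the highest wild-type value. Without it the log2 change turned to 0.02 for ZFP33 at its brighter probe set, 0.06 for ZFP48 at its middle one and 0.08 for ZFP60. It kept its sign for ZFP33 at its dimmer probe set, at 0.44, and for ZFP38, at -0.04. None of these passed the test either. Whether that plant sample or that array carries the difference was not tested.

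**Figure D3:**
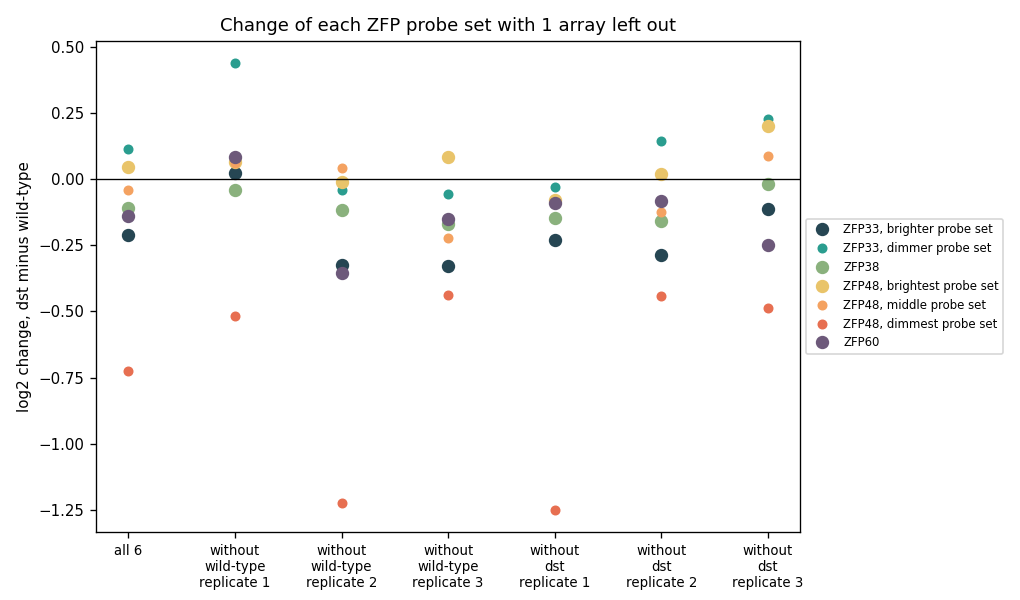
Log2 change, dst minus wild-type, of each ZFP probe set with all 6 arrays and when single arrays are left out (large points mark the probe set that stands for its gene). Without wild-type replicate 1 the brighter ZFP33 probe set moves from -0.21 to 0.02, and the dimmest ZFP48 probe set ranges from -1.25 to -0.44.

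The likeness of array patterns was described with Pearson's r of log2 signal over the 6 arrays. The named genes most like ZFP33 were ML at 0.97, OsXRT5 at 0.96 and COPT1, of the copper transporter family, at 0.95. At least the value of COPT1 was reached by 34 of 16012 other genes tested. ML read 8569, 6853 and 6443 in the wild type and 6632, 6951 and 5809 in dst. Wild-type replicate 1 was highest, which follows from the choice of ML by its likeness to ZFP33.

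ZFP38 and ZFP48 are next to each other on chromosome 3 in the gene order of the RefSeq table, and SAP14, a further SAP gene, comes next. SAP14 did not pass the filter, with signals of 43.3, 38.6 and 6.9 in the wild type and 36.9, 78.4 and 101.2 in dst. ZFP33 lies on chromosome 7 and ZFP60 on chromosome 8. Within 3 genes on either side of the 4 members, 7 other genes are on the array and 6 were tested. None of the 6 passed, and their log2 changes ran from -0.14 to 0.61. The highest was that of RFC5, a replication factor subunit 3 genes from ZFP38 (limma adjusted p of 0.349). RFC5 is named for this value, and its groups did not overlap, as in 16.6% of all tested probe sets.

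The rest of the SAP family gave no call either. Of 9 other SAP genes on the array 8 were tested, 4 had a higher mean in dst, and their median log2 change was 0.01. SAP4 had the smallest p of them, with a log2 change of 0.11 ± 0.10 (SE; limma adjusted p of 0.776). SAP8, known to give stress tolerance when overexpressed, read 10650, 10847 and 11650 in the wild type and 10037, 10505 and 11040 in dst. ISAP1, the first rice member known to give tolerance in tobacco, read 2338, 1241 and 1454 in the wild type and 1501, 1816 and 993 in dst. SAP8 and ISAP1 are named after their values were seen. ISAP1 was the only one of the 8 with its highest signal on wild-type replicate 1, and its log2 change was -0.21 ± 0.27 (SE).

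Lists of stress genes often studied beside C2H2 zinc finger genes were read in the same fit. Apart from the list of SAP genes, they were not drawn up around the members. Across 7 lists, counting SAP genes other than the members, rab25 was the only gene past the threshold. Over all genes tested 0.45% rose, 0.537% fell and 12.6% had an unadjusted limma p under 0.05. At that unadjusted p the counts were 1 of 4 proline genes and 1 of 7 dehydrin and LEA genes. They were 3 of 13 for superoxide and peroxide removal, 1 of 15 for MAP kinases and 0 in the other lists. Among 7 genes of dehydrins and LEA proteins, which protect cells that lose water, rab25 rose and 6 did not pass. It read 291.7, 427.2 and 475.2 in the wild type and 1036, 1261 and 930.5 in dst, without overlap. Its call was lost without wild-type replicate 2, at a limma adjusted p of 0.0569, and likewise without dst replicate 1 (0.0632), dst replicate 2 (0.0594) or the variance trend (0.109). LEA19, also named LEA3, had a log2 change of 0.10 ± 0.20 (SE).

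Of 4 genes for proline synthesis and transport none passed, and the mean was higher in dst for all 4 (median log2 change 0.12), as it was for 54.3% of all genes tested. P5CS2, an enzyme of proline synthesis, read 138.6, 164.5 and 80.7 in the wild type and 263.4, 244.5 and 204.0 in dst. The groups did not overlap, and the log2 change of 0.95 ± 0.32 (SE) had a limma adjusted p of 0.310. The related P5CS1 measured 0.02 ± 0.09 and the proline transporter gene proT 0.03 ± 0.17, and both were below 0 with median centring.

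None of 13 genes that remove superoxide and peroxide passed, and their median log2 change was 0.01. APX7, an ascorbate peroxidase gene, had the smallest p, at 0.45 ± 0.12 (SE; limma adjusted p of 0.187). APX1 measured 0.54 ± 0.20 (SE; limma adjusted p of 0.354). In the other direction sodCp, a superoxide dismutase gene named after its values were seen, measured -0.33 ± 0.09 (SE; limma adjusted p of 0.222). It read 9581, 10284 and 9093 in the wild type and 7716, 7551 and 7816 in dst, without overlap. The respiratory burst oxidase gene rbohB, whose enzyme makes superoxide, measured 0.18 ± 0.12 and did not pass.

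Of 17 genes named as MAP kinases or as kinases of these, 15 were tested. None passed, and their median log2 change was 0.03. MPK13 measured -1.23 ± 0.38 (SE; limma adjusted p of 0.250), MPK7 0.08 ± 0.17 and MPK14 0.01 ± 0.13. Of 8 DREB genes, which encode factors of the cold and drought response, 5 were tested. DREB1A, DREB1B and DREB2D were left out by the filter on low signal. None of the 5 passed, with a median of 0.08. DREB1C measured -0.73 ± 0.52, and this ranged from -1.21 without dst replicate 1 to -0.30 without wild-type replicate 1. DREB2A measured 0.40 ± 0.41. A list of other C2H2 names matched 0 genes on the array.

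**Figure D4:**
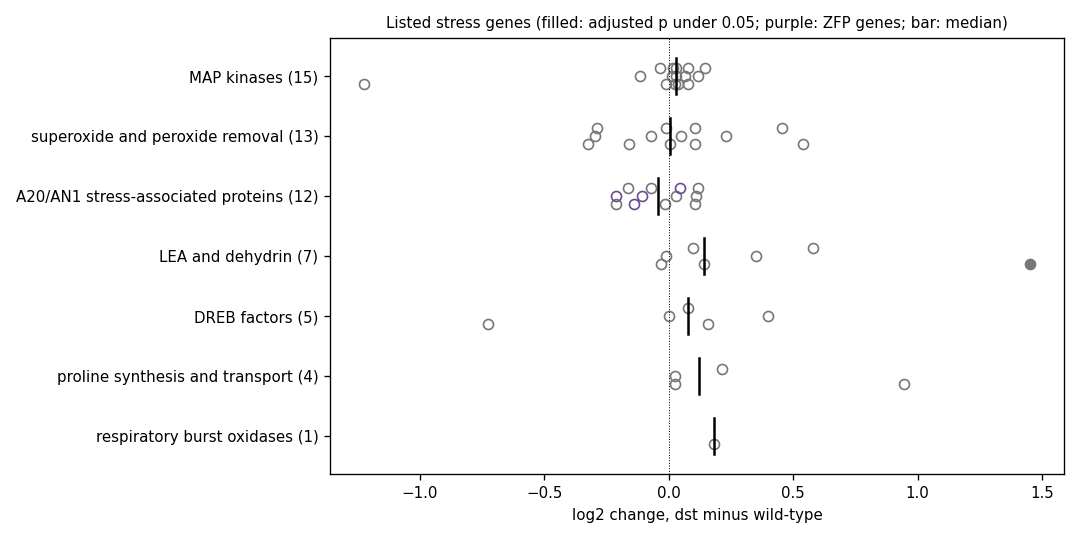
Log2 change, dst minus wild-type, of each tested gene in the 7 lists (number tested in brackets), with a bar at the median of each list and a filled point for an adjusted p under 0.05. The only filled point is rab25 at 1.45, and the 4 ZFP genes (purple) lie between -0.21 and 0.05.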

How the data were processed

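Total RNA was extracted with Trizol and biotin-labelled by Affymetrix procedures, per the labels' protocols. The authors deposited 1 linear signal intensity per probe set and array. The sources used here give neither software nor scaling, and no detection calls were used. The mean of each array after trimming 2% at either end was 500.1, so the arrays appear scaled to a common level.

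Log2 was taken after raising values under 1 to 1. The 187 control probe sets were removed, then those with a mean log2 under the 40th percentile (signal 70.5), which left 34316. Groups were compared over these with limma 3.58.1 in R 4.3.3 (mean-variance trend, no covariates, Benjamini-Hochberg, threshold 0.05), without further normalization. The procedure was tested on simulated data. Of the rice probe sets, 22436 have 1 gene, 95 several and 34663 none in the platform annotation. All 17905 genes were matched in the RefSeq table of assembly ASM3414082v1, used for names and gene order. A gene's brightest probe set stands for it.

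The members and lists were chosen with earlier results of these data known. Named genes are all members, genes past the threshold or with the smallest p in each list, and the 3 most like ZFP33. Preset genes known from work on rice C2H2 zinc fingers, and some neighbours, markers and genes under the filter, are named too. RFC5, SAP8, ISAP1 and sodCp were named after their values were seen. Alternatives varied normalization, filter, offset, variance model, weights, blocks, arrays, threshold and probe sets. Plots used matplotlib 3.10.9 in Python 3.11.15.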

Additional observations from a re-analysis of the deposited data

How the results depend on the processing

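No ZFP gene passed the threshold under any alternative run, and the smallest adjusted p of any of the 7 probe sets in limma was 0.505. Of 105 comparisons with alternative fits, 95 kept the sign and 10 turned it, all with 1 array left out. With 1 array left out, ZFP33 ranged from -0.327 to 0.0216 at its brighter probe set and from -0.0565 to 0.438 at its dimmer one. ZFP48 ranged from -0.0806 to 0.198 at its brightest probe set and from -0.223 to 0.0878 at its middle one, and ZFP60 from -0.355 to 0.0849. The median over the 4 genes ranged from -0.221 to 0.0432.

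Over the whole array 317 probe sets passed, against 80 without the variance trend, 532 with array weights, 606 with a block for the third arrays and 536 at an adjusted p under 0.10, and 118 to 280 with 1 array left out. A looser threshold raises the count by construction, fewer arrays leave fewer samples in the fit, and for the others the cause was not tested. Of the listed genes 1 passed, against 0 without the variance trend and 0 to 1 with 1 array left out.

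With the replicate block, the replicate number entered as a term, the count of listed genes was 2, as APX1 joined rab25 at a limma adjusted p of 0.0221. No label says that the numbers pair the samples, and deviations of same-numbered arrays correlated at 0.05, 0.05 and 0.20. The value of 0.20 is that of the third arrays, which also shared a lower highest signal. Differently numbered arrays were not correlated for comparison. The block changed no call of a ZFP gene.

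Other named genes turned sign near 0 without a call. Under median centring P5CS1 was -0.00882, proT -0.00788 and MPK14 -0.0206. With array weights proT was -0.0263, LEA19 -0.102, MPK14 -0.00352 and ISAP1 0.0199, and with replicates 1 and 2 only LEA19 was -0.174. With 1 array left out the ranges were -0.00439 to 0.0425 for P5CS1, -0.145 to 0.112 for proT, -0.0673 to 0.334 for LEA19, -0.117 to 0.227 for MPK7, -0.0574 to 0.114 for MPK14 and -0.405 to 0.0528 for ISAP1. Signal over background is unknown without detection calls, which limits folds of dim probe sets such as the dimmest of ZFP48, SAP14 and DREB2A.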
